A study of Mus musculus with 6 samples.

Results

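The cytotoxic granule effector genes described here are 10 genes: the granzymes Gzma, Gzmb, Gzmc, Gzmk and Gzmm, the pore-forming protein gene Prf1, the death ligand gene Fasl, and the granule genes Nkg7, Ctsw and Srgn. They were chosen by name among the genes of an RNA-seq table, and all 10 were found among its 34199 gene symbols. Expression was measured in 3 Dnmt3b+/- peripheral T-cell lymphomas (PTCL), numbered 1 to 3 as the labels number them. Each tumor was taken from a lymph node of a mouse of the FVB/N strain that had become terminally ill. The mice carried a conventional knockout of 1 Dnmt3b allele, which is present in every cell, so that the cells around the tumor carry it too. Ages of these mice and any sorting of tumor cells are not given in the sources used here. The series also holds 3 libraries of whole-genome bisulfite sequencing, which were not analysed here, and no control library was used. With a single group of 3 tumors, all values are descriptions and no test between groups was made.

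Cytotoxic T cells and natural killer (NK) cells kill by releasing granules onto a target cell. Perforin opens the target membrane, granzymes are serine proteases that enter and cleave proteins of the target, and serglycin packs these cargoes inside the granule. Naive CD8 T cells hold little of this machinery, and its genes are switched on as they become effector cells.

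Values are FPKM, as the authors deposited them, which divide the fragments on a gene by the length of its exons and by the depth of its library. FPKM are per length, so levels can be set side by side between genes. Depths were 30726570, 18969988 and 20770928 reads for tumors 1, 2 and 3, so that 1 read on a gene of 1 kilobase was worth 0.0325, 0.0527 and 0.0481 FPKM. Reads per gene, given where levels are low, were recovered from FPKM, exon length and depth. The tumors were checked against their label with marker genes. Cd8a had 258.5, 121.8 and 218 FPKM in tumors 1, 2 and 3, and Cd8b1 had 435, 166 and 443 FPKM. Cd4 was lower, with 28.4, 4.28 and 8.22 FPKM. Cd3e, a chain of the T-cell receptor complex, had 56.4, 78.1 and 65.3 FPKM. All 3 tumors thus held CD8 and CD3 transcripts at high levels, with CD8 lowest in tumor 2.

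Most of the granule genes were expressed in all 3 tumors, and which of them were high differed from tumor to tumor. Above 1 FPKM in every tumor were 9 of the 10 genes, all but Gzmc, against 28.4% of all symbols of the table. Their FPKM summed to 991 in tumor 1, 1704 in tumor 2 and 1303 in tumor 3 (mean 1332 ± 357, SD, n = 3). This sum is 0.525%, 0.824% and 0.582% of all FPKM of the tumor. The sum differed 1.72-fold between its highest and lowest tumor, whereas single genes differed by up to 70.9-fold. Fewer cells with a transcript and less of the transcript per cell cannot be told apart in these bulk tumors.

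**Figure D1:**
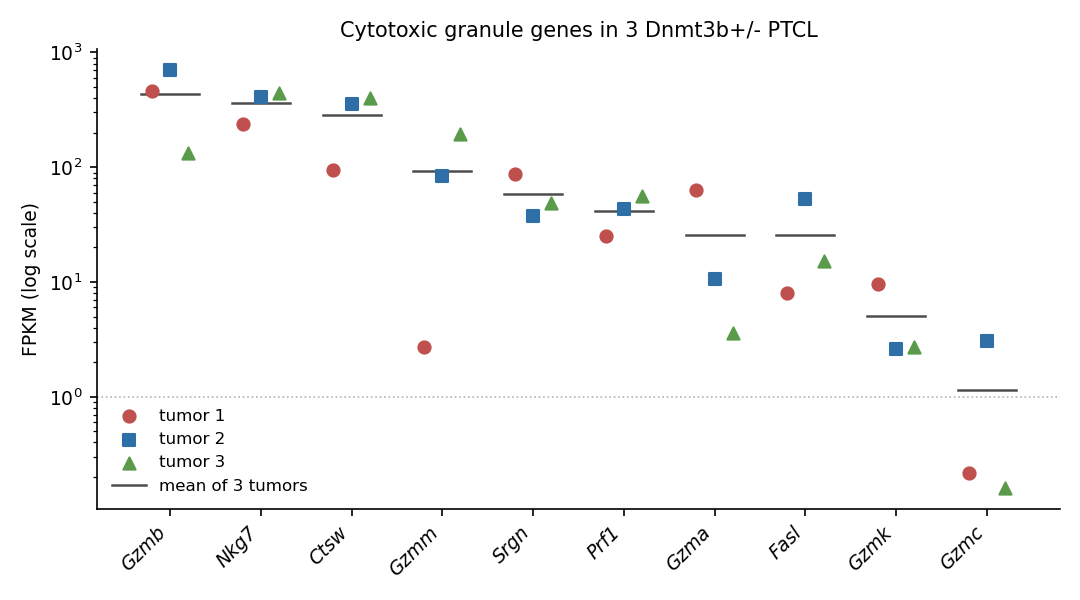
FPKM of the 10 cytotoxic granule genes on a log axis, with a point for each of the 3 Dnmt3b+/- PTCL and a bar for their mean, ordered by the mean; the dotted line marks 1 FPKM. Gzmm spans 2.74 to 194 FPKM and Gzma 3.59 to 63.4 FPKM, while Nkg7 stays between 237 and 447 FPKM.

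Gzmb encodes granzyme B, which cleaves caspases and other proteins after aspartate. The gene (ENSMUSG00000015437) lies on the minus strand of mm10 at chr14:56258838-56262260. It had 463, 702 and 134 FPKM in tumors 1, 2 and 3 (mean 433 ± 285, SD, n = 3), which was the highest mean of the 10 genes. In tumors 1 and 2 it was the highest of the 10 and stood at places 30 and 31 of all symbols, and in tumor 3 it was the fourth of the 10 at place 199. Tumor 2 was 5.24-fold above tumor 3, and this gap rests on 19119 and 3994 reads. Gzmc encodes granzyme C, and the gene (ENSMUSG00000079186) follows Gzmb on the same strand at chr14:56231441-56234656, with 24.2 kb between the genes. Gzmc had 3.07 FPKM in tumor 2, from 52 reads, and 0.218 and 0.162 FPKM in tumors 1 and 3, where it had 6 and 3 reads. The ratio of tumor 2 to tumor 3 was 19.0, with an exact 95% interval of 6.15 to 95.01, and that of tumor 2 to tumor 1 was 14.0, with an interval of 6.03 to 40.0. These and all other intervals cover counting error only. Gzmc was thus highest in tumor 2, as Gzmb was, but at 3 reads in tumor 3 it was not above the limit that a count of 0 allows.

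Gzmm encodes granzyme M, which cleaves after methionine or leucine. The gene (ENSMUSG00000054206) lies on the plus strand at chr10:79689020-79695261. It had 2.74, 83.5 and 194 FPKM in tumors 1, 2 and 3 (mean 93.5 ± 96.2, SD, n = 3). Tumor 1 stood far below the others, with 124 reads against 2331 and 5942, and the ratio of tumor 3 to tumor 1 was 70.9, with an exact 95% interval of 59.3 to 85.4. Gzma encodes granzyme A, which cleaves after basic residues, and its gene (ENSMUSG00000023132) lies on the minus strand at chr13:113093825-113100981. Gzma had 63.4, 10.6 and 3.59 FPKM in tumors 1, 2 and 3 (mean 25.9 ± 32.7, SD, n = 3). Its order of tumors was the reverse of that of Gzmm, and tumor 1 was 17.7-fold above tumor 3. Gzmk encodes granzyme K, a protease of the same kind as granzyme A, and its gene (ENSMUSG00000042385) lies 70.6 kb away on the same strand at chr13:113171608-113225908. Gzmk had 9.70, 2.62 and 2.74 FPKM in the 3 tumors, based on 414, 69 and 79 reads. Both genes of this pair were highest in tumor 1, and tumors 2 and 3 differed 2.96-fold for Gzma and 1.05-fold for Gzmk.

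The promoters of 4 granzyme genes are given so that Gzmb can be read beside its neighbor Gzmc, whose level was far lower, and Gzma beside Gzmm, whose order of tumors was the reverse. Each run is the 250 bases before the start of the gene in RefSeq on GRCm38.p6, written along the strand of the gene. Capitals mark matches on either strand to TGANTCA (AP-1), GGAAA (the core of NFAT sites), TGTGGT (RUNX), AGGTGTGA (T-box) and CACGTG (E-box). TGANTCA, where N is any base, and CACGTG read the same on both strands, and no marked matches overlapped. The Gzmb window is chr14:56262335-56262584 on the minus strand, and its start lies 74 bases before that of the table. The Gzmc window is chr14:56234658-56234907 on the minus strand. The Gzma window is chr13:113100982-113101231 on the minus strand. The Gzmm window is chr10:79688770-79689019 on the plus strand, before the start that the table uses, where RefSeq lists 2.
Gzmb: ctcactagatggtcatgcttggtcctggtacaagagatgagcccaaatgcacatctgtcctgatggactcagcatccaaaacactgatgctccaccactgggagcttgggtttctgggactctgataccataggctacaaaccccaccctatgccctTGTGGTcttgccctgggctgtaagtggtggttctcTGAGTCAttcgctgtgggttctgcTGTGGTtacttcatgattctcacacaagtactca
Gzmc: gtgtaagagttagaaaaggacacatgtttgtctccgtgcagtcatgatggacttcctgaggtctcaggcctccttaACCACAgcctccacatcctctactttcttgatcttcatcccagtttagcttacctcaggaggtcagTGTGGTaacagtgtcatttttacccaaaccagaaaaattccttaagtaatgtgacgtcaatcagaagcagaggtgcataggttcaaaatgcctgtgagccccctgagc
Gzma: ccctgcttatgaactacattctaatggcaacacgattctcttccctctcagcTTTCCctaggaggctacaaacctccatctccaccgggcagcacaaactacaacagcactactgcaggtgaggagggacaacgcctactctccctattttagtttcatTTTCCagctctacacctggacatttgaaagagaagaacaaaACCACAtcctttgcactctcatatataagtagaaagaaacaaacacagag
Gzmm: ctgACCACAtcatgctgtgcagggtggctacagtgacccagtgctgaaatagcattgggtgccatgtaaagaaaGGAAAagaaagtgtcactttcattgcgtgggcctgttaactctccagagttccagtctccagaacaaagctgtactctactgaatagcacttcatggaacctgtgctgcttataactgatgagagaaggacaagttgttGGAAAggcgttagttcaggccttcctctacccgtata

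The Gzmb window holds the AP-1 letters once, from 58 to 52 bases before the start, and the RUNX letters at 2 places. Gzmc holds the RUNX letters at 2 places, and Gzma and Gzmm each hold the NFAT core at 2 places and the RUNX letters at 1. Windows were found for 9 of the 10 genes. Gzmm and Srgn each list 2 starts, so that there are 11 windows, and counts per gene use the start nearest to that of the table. The RUNX letters occurred in 6 of these 9, in Gzma, Gzmb, Gzmc, Gzmm, Prf1 and Nkg7, and in 7 of the 11 windows, against 14.0% of all 32851 promoters of the same length. The NFAT core occurred in 4 of 9, in Gzma, Gzmm, Fasl and Nkg7, and in 5 of the 11 windows, against 55.6% of all promoters. The AP-1 letters were found in Gzmb and in 6.75% of all promoters, and the T-box letters in Nkg7 and in 1.12%. The E-box letters were in 1 of the 11 windows, at the second start of Gzmm, and in 6.02% of all promoters. Gzmk held none of the 5 motifs, nor did Srgn at the start of the table, while its second start had the NFAT core at 2 places and the RUNX letters at 1. The RefSeq start of Gzmk lies 44943 bases from the start in the table. A match describes the letters of the window and not the binding of a factor, which was not tested. The printed promoters of Gzma and Gzmm, whose transcripts had reversed orders of tumors, held the same kinds of match in the same numbers.

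The makeup of the granzyme transcripts differed between the tumors, as did their sum. The table holds 10 granzyme genes, whose FPKM summed to 539 in tumor 1, 802 in tumor 2 and 335 in tumor 3. Gzmb held 85.9% of this sum in tumor 1 and 87.5% in tumor 2. In tumor 3 Gzmm held 58.0% and Gzmb 40.0%. The second granzyme was Gzma in tumor 1, with 11.8%, and Gzmm in tumor 2, with 10.4%. The share of the highest granzyme had a mean of 77.1% ± 16.6 (SD, n = 3). Gzmb was 169-fold above Gzmm in tumor 1 and 8.41-fold in tumor 2, while in tumor 3 Gzmm was 1.45-fold above Gzmb. Gzmb was 7.30-fold above Gzma in tumor 1, 66.0-fold in tumor 2 and 37.3-fold in tumor 3. These ratios are within a tumor and do not move with the scale of the library.

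**Figure D2:**
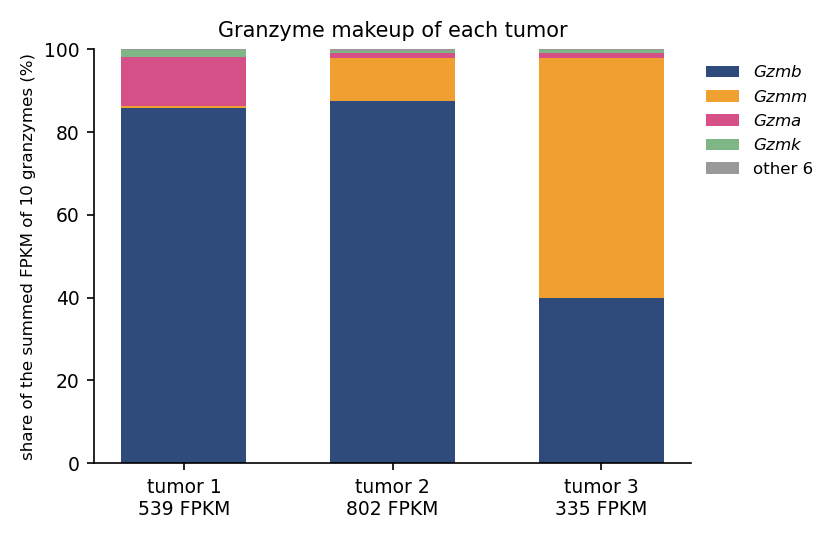
Share of each granzyme in the summed FPKM of the 10 granzyme genes of the table, as stacked bars that add to 100% for each of the 3 tumors, with the sum under each bar. Gzmb holds 85.9% and 87.5% in tumors 1 and 2, and Gzmm holds 58.0% in tumor 3.

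The other 5 granzyme genes, Gzmd, Gzme, Gzmf, Gzmg and Gzmn, lie downstream of Gzmc on the same strand. None of the 5 had a read in tumors 1 and 3. In tumor 2 they had 13 reads together, with an exact Poisson 95% interval of 6.92 to 22.2, and Gzmn had no read there. The highest was Gzme with 0.288 FPKM from 5 reads, and the limit that a count of 0 allows was 0.160 to 0.174 FPKM for these genes in tumor 2. The few reads of the cluster beyond Gzmc thus came from tumor 2, which was also the tumor highest in Gzmb and Gzmc. Farther along the locus lie proteases of mast cells and neutrophils. Mcpt4, a mast cell chymase, had 14.8 FPKM in tumor 1 and 1.36 in tumor 3, and in tumor 2 it was under the limit that a count of 0 allows. Cma1, another chymase, had 6.82, 0.294 and 1.21 FPKM in tumors 1, 2 and 3. Both were highest in tumor 1 and lowest in tumor 2, which was the highest tumor for Gzmb. Mcpt8 and Ctsg had 3 reads each in tumor 1 and none in tumors 2 and 3, and the others of the 8 proteases, which with Ctsg were named after their values were seen, Mcpt1, Mcpt2, Mcpt9 and Cma2, were at or below 0.0501 FPKM in every tumor.

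**Figure D3:**
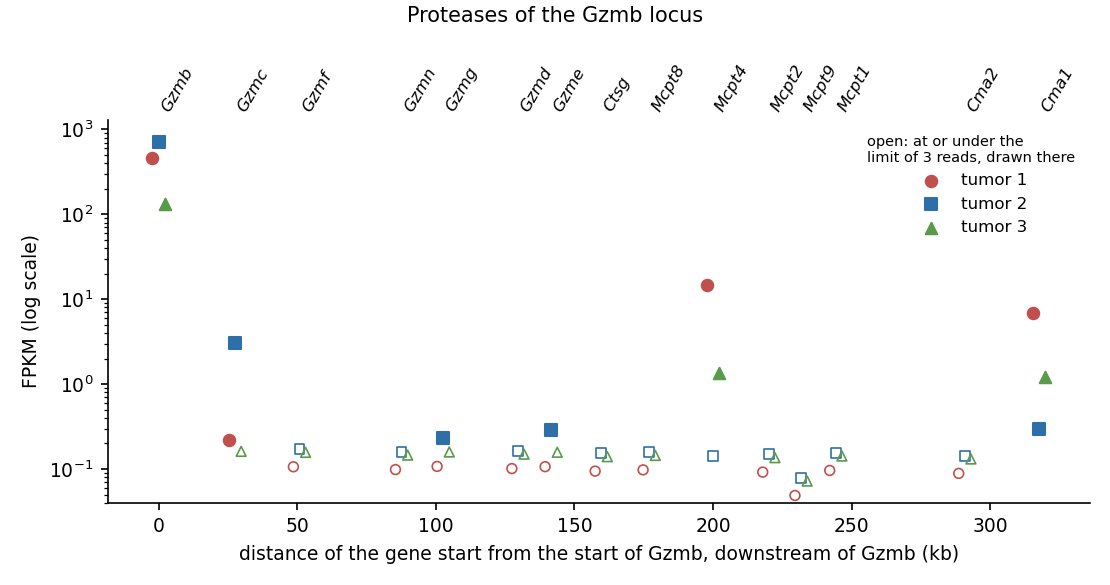
FPKM on a log axis of the granzyme and mast cell protease genes of the Gzmb locus in the 3 tumors, by the distance of each gene's start from the start of Gzmb in kb. Open points are at or under the limit of 3 reads and are drawn at that limit; Gzmb lies at 134 to 702 FPKM, its neighbor Gzmc at 0.162 to 3.07, and Mcpt4 and Cma1 rise above the limit again, highest in tumor 1.

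Prf1 encodes perforin 1, which forms the pore through which granzymes pass. The gene (ENSMUSG00000037202) lies on the plus strand at chr10:61297833-61304680. It had 25.1, 42.9 and 56.2 FPKM in tumors 1, 2 and 3 (mean 41.4 ± 15.6, SD, n = 3). Prf1 was lowest in tumor 1 and its highest tumor was 2.23-fold above the lowest, in FPKM a smaller spread than that of any of the 5 granzymes among the members. Against Prf1, the summed FPKM of the granzymes was 21.4-fold higher in tumor 1, 18.7-fold in tumor 2 and 5.96-fold in tumor 3. Tumor 3 thus had the most perforin transcript in FPKM and the fewest granzyme transcripts per perforin transcript.

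Fasl encodes Fas ligand, a membrane protein of the TNF family that kills through the receptor Fas without granule contents. The gene (ENSMUSG00000000817) lies on the minus strand at chr1:161780689-161788495. Fasl had 8.08, 53.4 and 15.1 FPKM in tumors 1, 2 and 3 (mean 25.5 ± 24.4, SD, n = 3). Tumor 2 stood above the others, 6.60-fold over tumor 1 and 3.53-fold over tumor 3. Its receptor gene Fas had 16.0, 4.83 and 8.88 FPKM in tumors 1, 2 and 3. In FPKM, ligand and receptor thus had reversed orders of tumors, which need not hold on other scales. The part of other cell types in the level of Fas was not tested. The TNF family ligand Tnfsf10 (TRAIL) had 7.65, 16.7 and 9.09 FPKM in tumors 1, 2 and 3 and was also highest in tumor 2. Its receptor gene Tnfrsf10b had 1.77, 2.205 and 0.751 FPKM. The cytokine gene Tnf had 3.61, 4.05 and 1.88 FPKM and Lta had 3.65, 2.78 and 3.48 FPKM. Ifng, the gene of interferon gamma, had 8.49 FPKM in tumor 1 and 1.10 and 1.12 FPKM in tumors 2 and 3. Of these 6 genes, 2 had a highest tumor at least 3-fold above the lowest, Ifng and Fas, against 16.5% of all genes averaging at least 1 FPKM. Both were highest in tumor 1, as were 50.6% of all these genes.

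Nkg7 encodes a membrane protein of the granule that takes part in its release. The gene (ENSMUSG00000004612) lies on the plus strand at chr7:43437073-43438249. It had 237, 409 and 447 FPKM in tumors 1, 2 and 3 (mean 364 ± 112, SD, n = 3), and was the first of the 10 genes in tumor 3 and the second in tumors 1 and 2. Its spread of 1.89-fold was the smallest of the 10 in FPKM, but not when divided by the summed FPKM of Cd8a and Cd8b1. Ctsw encodes cathepsin W, a cysteine protease of the cathepsin family found in CD8 T cells and NK cells. The gene (ENSMUSG00000024910) lies on the minus strand at chr19:5465240-5468498 and had 94.4, 359 and 401 FPKM in tumors 1, 2 and 3 (mean 285 ± 166, SD, n = 3). Tumor 1 was low for Ctsw, 4.25-fold under tumor 3, while tumors 2 and 3 differed 1.12-fold. Srgn encodes serglycin, the proteoglycan core of the granule, which other blood cells also make. The gene (ENSMUSG00000020077) lies on the minus strand at chr10:62493833-62527451 and had 87.8, 38.0 and 49.2 FPKM in tumors 1, 2 and 3 (mean 58.3 ± 26.2, SD, n = 3). Srgn was highest in tumor 1, where Prf1, Nkg7 and Ctsw were lowest, and it was lowest in tumor 2. Over Srgn, the granzyme sum was 6.14-fold, 21.1-fold and 6.81-fold in tumors 1, 2 and 3.

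By mean FPKM the order was Gzmb, Nkg7, Ctsw, Gzmm, Srgn, Prf1, Gzma, Fasl, Gzmk and Gzmc. Of the 9 pairs of neighbors in this order, only Ctsw and Gzmm had means farther apart than the larger of their SDs, with a difference of 191 FPKM. The first 3 of these genes thus could not be ordered by their means, although Nkg7 was above Ctsw in 3 of 3 tumors. Srgn was above Prf1, and Gzma above Fasl, in 1 of 3 tumors, and in both cases this was tumor 1.

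All 10 genes had a mean FPKM of at least 1, the level from which ratios between tumors were counted, but Gzmc passed it through tumor 2 alone. The highest tumor was at least 3-fold above the lowest for 7 of the 10, against 16.5% of the 11191 genes averaging at least 1 FPKM. Without tumor 1 this count was 3, with 8.63% of all genes. These 7 were the 5 granzymes, Fasl and Ctsw, and without Gzmc they were 6 of 9. The median ratio was 4.75 for the 10 genes and 1.68 for all 11191. Without Gzmc the median of the members was the ratio of Ctsw, 4.25. A ratio as large as that of Gzmm was reached by 1.56% of all these genes, one as large as that of Gzma by 3.56%, and one as large as that of Gzmb by 8.57%. For Nkg7 this share was 38.8%. Over all 3 tumors, the granzyme transcripts therefore varied more than most expressed genes did, and Prf1, Nkg7 and Srgn did not reach 3-fold. Without tumor 1, only Gzmb and Gzmc among the granzymes reached 3-fold. Divided by the summed FPKM of Cd8a and Cd8b1, an alternative chosen after seeing the data, Prf1 reached 4.11-fold and Nkg7 4.16-fold, and the count was 9 of 10, with 43.9% of all genes.

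**Figure D4:**
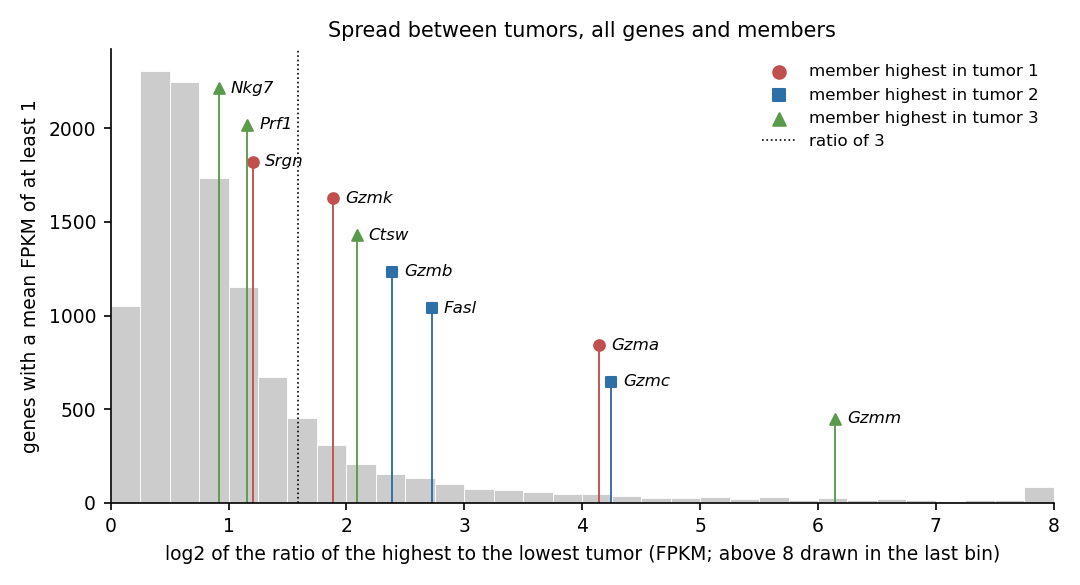
Number of genes by the log2 ratio of their highest to their lowest tumor, over the 11191 genes averaging at least 1 FPKM, with the 10 cytotoxic granule genes as pins marked by their highest tumor. The dotted line is a ratio of 3, which 7 of the 10 pass; Gzmm is farthest right at 70.9 and Nkg7 farthest left at 1.89.

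No tumor was the highest for most of the 10 genes. Tumor 1 was highest for 3 (Gzma, Gzmk and Srgn), against 50.6% of all genes averaging at least 1 FPKM. Tumor 2 was highest for 3 (Gzmb, Gzmc and Fasl), against 33.7%, and tumor 3 for 4 (Gzmm, Prf1, Nkg7 and Ctsw), against 15.7%. Tumor 1 was the lowest for 5 genes, Gzmm, Prf1, Fasl, Nkg7 and Ctsw, where 24.3% of all genes were lowest in it. These places depend on the scale. Divided by the summed FPKM of the 4 CD3 chain genes, which was 271, 339 and 372 FPKM in the 3 tumors, Nkg7 became highest in tumor 2 and the other 9 had their highest tumor unchanged. On the Cd8a and Cd8b1 scale, tumor 2 was highest for 7 genes, tumor 1 for Gzma and Gzmk, and tumor 3 for Gzmm. This scale raised tumor 2 against the others for every gene, as its CD8 sum was the lowest. Over all genes averaging at least 1 FPKM, the median log2 ratio was then 1.09 for tumor 2 to tumor 1 and -1.26 for tumor 3 to tumor 2. The share of all genes highest in each tumor was not counted on this scale, so the 7 cannot be read as particular to these genes. Gzma and Gzmk in tumor 1, Gzmb, Gzmc and Fasl in tumor 2, and Gzmm in tumor 3 held their places under all 4 other scales. Set against the CD3 sum of the same tumor, Gzmb was at 170.5% in tumor 1, 207% in tumor 2 and 36.0% in tumor 3. Gzmm was at 1.01%, 24.6% and 52.2% of it, and Prf1 at 9.26%, 12.6% and 15.1%.

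Granule genes outside the 10 were described from lists. Of 7 genes of granzyme activation and granule proteases, 6 were above 1 FPKM in every tumor, against 28.4% of all symbols, and 4 had ratios of at least 3, against 16.5% of all genes averaging at least 1 FPKM. Ctsd, the gene of cathepsin D, had the highest mean, 190.7 ± 56.1 FPKM (SD, n = 3). Cst7, which encodes the cathepsin inhibitor cystatin F, had 60.4, 144.5 and 108 FPKM in tumors 1, 2 and 3. Ctsz had 48.4 ± 11.05 FPKM (SD, n = 3). Ctsl had the largest ratio, with 5.65, 2.65 and 0.341 FPKM in tumors 1, 2 and 3. Ctsc, the gene of the cathepsin that trims granzymes to their active form, was named after its values were seen and had 46.1, 10.3 and 11.0 FPKM in the 3 tumors. The activating protease was thus highest in the tumor where its inhibitor Cst7 was lowest. The summed FPKM of macrophage genes was also highest in tumor 1, and the part of macrophages in the level of Ctsc was not tested.

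Genes of granule transport and release varied less than the granzymes, and about as much as all genes. Of 18 listed, 17 were found by name, and Vamp7 was not analysed here. Above 1 FPKM in every tumor were 16 of the 17, against 28.4% of all symbols, and 2 of 16 with a mean FPKM of at least 1 had ratios of at least 3, against 16.5% of all genes, with a median of 1.77 against 1.68. Coro1a, an actin regulator, had 267, 388 and 398 FPKM in tumors 1, 2 and 3. Lamp1, a membrane protein of lysosomes and granules, had 73.2, 47.4 and 36.8 FPKM. M6pr, a receptor that sorts granzymes to granules, had 42.5, 41.2 and 39.8 FPKM and differed 1.07-fold. Stx11, a fusion protein of granule release, had the largest ratio, with 4.075, 5.99 and 1.86 FPKM.

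Of the 5 genes for serpins that block granzymes and cathepsins, 4 were above 1 FPKM in every tumor, against 28.4% of all symbols, and all 4 were highest in tumor 1, as were 50.6% of all genes averaging at least 1 FPKM. Serpinb9, whose product inhibits granzyme B, had 16.0, 11.9 and 9.73 FPKM in tumors 1, 2 and 3. Serpinb6b had 16.5, 7.55 and 9.24 FPKM and Serpinb6a 5.205, 2.83 and 2.88. Serpina3g had 16.3, 1.75 and 2.54 FPKM and was the only one of the 4 with a ratio of at least 3, which 16.5% of all genes reached. Serpinb9b had at most 0.146 FPKM. Serpinb9 was lowest in tumor 3, as Gzmb was. The summed FPKM of macrophage genes was also highest in tumor 1, and the part of macrophages in the serpin levels was not tested.

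Among 10 transcription factors of effector T cells, 8 were above 1 FPKM in every tumor, against 28.4% of all symbols, and 4 of 9 had ratios of at least 3, against 16.5%. Hopx had 38.1, 78.6 and 71.0 FPKM in tumors 1, 2 and 3, and Eomes, a T-box factor of CD8 effector and memory cells, had 20.02, 39.5 and 44.97. Runx3, a factor of the CD8 lineage, had 13.9, 36.9 and 18.5 FPKM. These 3 were lowest in tumor 1, but the list as a whole had no common order: of the 9 averaging at least 1 FPKM, 4 were lowest in tumor 1, against 24.3% of all genes, and 3 were highest there, against 50.6%. Irf4 had the largest ratio, with 3.57, 0.312 and 3.25 FPKM in tumors 1, 2 and 3. Of the 4 effector chemokine genes, Ccl5 had 238.5, 193.9 and 729.5 FPKM, and Xcl1 had 4.605, 86.9 and 35.6 FPKM. Ccl3 had 12.3, 2.00 and 1.57 FPKM, and Ccl4 had 27.6, 24.0 and 32.1 FPKM. Xcl1, like Fasl, was highest in tumor 2 and lowest in tumor 1. Ccl5 and Ccl4 were highest in tumor 3, as were Gzmm and 15.7% of all genes averaging at least 1 FPKM. They were lowest in tumor 2, however, whereas Gzmm was lowest in tumor 1.

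For 9 of the 10 genes, all but Gzmc, whose 6 and 3 reads in tumors 1 and 3 are too few, the 3 most similar patterns were taken from up to 3432 genes averaging at least 10 FPKM, by the largest difference over the 3 tumors in log2 of FPKM over the gene's mean. With 3 tumors such likeness is a description only. Nearest to Gzmb were Mir142hg with a difference of 0.07, Bhlhe40 with 0.15 and Fgl2 with 0.20. Nearest to Gzma were Il2ra with 0.40, Ly6k with 0.52 and Hbb-bt with 0.66. Il2ra, the alpha chain of the interleukin 2 receptor, had 43.2, 9.98 and 1.96 FPKM in tumors 1, 2 and 3. No gene was close to Gzmm, and the nearest were Ly6c2 with 1.204, Gm6594 with 1.23 and Itm2a with 1.31. Ly6c2, a surface marker of effector and memory CD8 T cells, had 9.64, 749.8 and 334.5 FPKM, low in tumor 1 as Gzmm was but highest in tumor 2. Nearest to Fasl were Gm29439 with 0.16, Dhx58 with 0.16 and Oas1g with 0.19, of which the last 2 are interferon-induced genes. Nearest to Gzmk were Phc3 with 0.08, Rmnd5a with 0.08 and Id2 with 0.12.

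The patterns of Prf1, Nkg7 and Srgn were common. Within 0.2 of Prf1 lay 67 genes, within 0.2 of Nkg7 127 and within 0.2 of Srgn 135, against 3 for Gzmb, 4 for Fasl, 6 for Ctsw, 9 for Gzmk and none for Gzma and Gzmm. Nearest to Prf1 were Rpl41, Gar1 and Cox7c, each within 0.03, nearest to Nkg7 were Idh3g, Capzb and Nudt16l1, each within 0.06, and nearest to Srgn were Rabggtb, Gm42457 and Gmfb, each within 0.02. Nearest to Ctsw were Rpl38 with 0.05, Rpl29 with 0.14 and Lamtor2 with 0.15. Among these 9 genes themselves the most alike were Prf1 and Nkg7, with a difference of 0.15, followed by Gzmk and Srgn with 0.63. The member nearest to Gzma was Gzmk, with 1.98, and the member nearest to Gzmm was Fasl, with 3.43.

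Other genes near the granzymes were chosen by position after the values were seen. Cdc34, Bsg, Cenpj and Dhx29 differed less between tumors than the granzymes beside them. Cdc34 ends 622 bases before Gzmm and had 21.3, 25.8 and 30.4 FPKM in tumors 1, 2 and 3. Bsg starts 9.23 kb after Gzmm and had 64.6, 107.9 and 65.0 FPKM. The 70.9-fold difference of Gzmm was thus not seen on either side of the gene, where ratios were 1.42 and 1.67. Cenpj, the nearest gene averaging at least 1 FPKM before the start of Gzmb, lies 264.5 kb away and had 3.02, 3.13 and 3.28 FPKM. Dhx29 lies 124 kb beyond the end of Gzma and had 4.24, 2.42 and 3.00 FPKM. It was highest in tumor 1, as Gzma was, with a ratio of 1.75. Esm1 overlaps Gzmk on the opposite strand. Whether reads were counted by strand is not given in the sources used here, so reads of the overlap cannot be told apart. Esm1 had at most 0.427 FPKM, under the lowest value of Gzmk. No stretch of 150 bases, the read length, of any transcript of the 10 genes in GENCODE M21 occurred in a transcript of another gene.

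Markers of other cell types moved with some of these genes. The 8 macrophage genes summed to 436, 147 and 36.6 FPKM in tumors 1, 2 and 3. Of the 8, 7 were highest in tumor 1, against 50.6% of all genes averaging at least 1 FPKM. Cd68 was the exception, highest in tumor 2, with 19.6, 51.2 and 9.27 FPKM. Lyz2 was the most abundant, with 215, 33.1 and 20.3 FPKM, and Adgre1 and Csf1r, which define the type, had 5.38 and 20.7 FPKM in tumor 1. The 7 mast cell and basophil genes summed to 16.5, 1.40 and 3.22 FPKM, led by Cpa3 with 7.23, 0.278 and 1.46 FPKM, while Ms4a2 had 0.613, 0.487 and 0.976 FPKM and Fcer1a had no read in tumors 2 and 3. Gzma, Gzmk and Srgn were highest in this same tumor 1, and the part of these cells in their levels was not tested. The 5 gamma-delta T-cell genes summed to 66.2, 2.11 and 2.28 FPKM, led by Tcrg-C2 with 37.7, 1.10 and 0.527 FPKM, but Trdc, the constant gene of the delta chain, had at most 0.312 FPKM and Sox13 at most 0.294 FPKM. The 8 neutrophil genes summed to 39.5, 1.57 and 17.0 FPKM. S100a9 was the most abundant of them, with 22.6 FPKM in tumor 1, S100a8 had 13.2 FPKM there, and Elane had no read in any tumor.

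NK cells hold the same granule genes. The 7 NK cell genes summed to 1.03, 56.2 and 3.903 FPKM in tumors 1, 2 and 3. Klre1 was the most abundant, with 0.242, 32.2 and 0.0551 FPKM, and Klrb1c had 0.308, 5.77 and 3.38 FPKM. Ncr1, an NK cell receptor, had 0.380, 0.205 and 0.125 FPKM, from 18, 6 and 4 reads. In tumor 1, 2 of the 7 had no read, as had 2 in tumor 3 and none in tumor 2. The 4 receptor genes shared by NK and CD8 T cells summed to 52.9, 127 and 29.95 FPKM. Of these, Klrd1 was the most abundant with 37.2, 64.5 and 25.2 FPKM, and Klrk1 had 2.56, 15.6 and 1.60 FPKM. Klrg1 of the same list was instead highest in tumor 1, with 11.4, 6.79 and 1.91 FPKM. Gzmb, Gzmc and Fasl were highest in tumor 2, as these sums were, and the part of NK cells in them was not tested.

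The 6 pancreatic acinar genes summed to 70.5, 386 and 0.603 FPKM in tumors 1, 2 and 3. Ctrb1 was the most abundant of them and had no read in tumor 3. The part of acinar tissue in the levels of the granule genes was not tested. The 5 B-cell genes summed to 56.2, 13.7 and 104 FPKM, led by Cd79a with 23.1, 7.31 and 49.0 FPKM. Ms4a1 had 3.98, 0.4005 and 5.315 FPKM. The 2 plasmacytoid dendritic cell genes, Siglech and Ccr9, summed to 3.59, 0.331 and 1.43 FPKM. The 9 T-cell genes summed to 923, 1203 and 1142 FPKM, led by Lck with 159.6, 207.8 and 207.2 FPKM, and Cd3d had 110.3, 134.7 and 183 FPKM. This sum differed 1.30-fold. The 4 proliferation genes summed to 95.98, 56.4 and 29.5 FPKM, led by Mki67 with 38.7, 30.4 and 12.0, and Top2a had 42.8, 17.3 and 11.8 FPKM. Proliferation genes had the order of tumors of Gzma, and the part of dividing cells in its level was not tested.

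**Figure D5:**
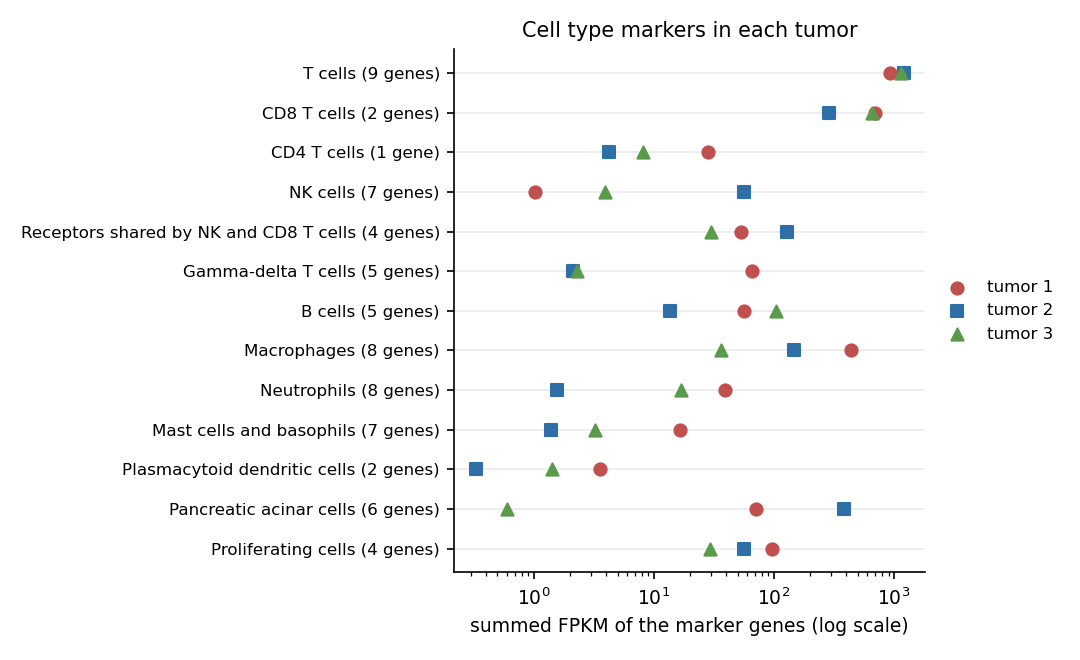
Summed FPKM of each list of cell type markers on a log axis, with a point for each of the 3 tumors and the number of genes found in brackets. T-cell genes lie between 923 and 1203 FPKM in all 3 tumors, while macrophage genes are highest in tumor 1 and NK cell and acinar genes are highest in tumor 2.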

How the data were processed

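RNA was sequenced from 3 Dnmt3b+/- PTCL with paired-end reads of 150 bases. Trimmed reads were aligned to mm10 (STAR) and, at mapping qualities of 50 or more, counted in SeqMonk by the authors, who deposited linear FPKM per tumor. Zero counts appear as 0.9 read. This value gave the depth of each library, and with exon lengths of GENCODE M21 whole reads were recovered in all 3 tumors, within 0.02 read, for 92.2% of genes with a length. For Ctsw, whose ends differ in GENCODE M21, an exon length of 1232 bases was used, the smallest from 500 to 3000 that gave whole reads. The limit that a count of 0 allows was set at 3 reads. Read intervals are exact Poisson or exact binomial and cover counting error only. Where a symbol was repeated, that with the highest mean was kept. The members and lists were chosen with earlier results of these data known. Named genes are the 10 members, the 3 highest by mean FPKM and the largest ratio of each pathway list (all genes of lists of 6 or fewer), the highest and first 2 of each cell type list, and the 3 most alike to each member, except genes left out of the text. Promoters of 9 members came from RefSeq. Alternatives were other scales, thresholds, filters, a pseudocount of 1 FPKM and each tumor left out. Steps were tested on simulated data. Scripts ran under Python 3.11 with SciPy 1.17.1, NumPy 2.4.6, matplotlib 3.10.9 and pandas 2.3.3.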

Additional observations from a re-analysis of the deposited data

How the results depend on the processing

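No paired analysis was possible because the RNA-seq libraries form a single group. Alternatives of the main results not given here lay within 1.5 times the main count or 1 SD of the main value, and the share of the highest granzyme cannot move with the scale of a tumor. The count of genes with a highest tumor at least 3-fold above the lowest was 7 with all tumors, against 16.5% of all genes. Without tumor 1 it was 3 of 10, against 8.63%, without tumor 2 it was 5 of 9, against 8.60%, and without tumor 3 it was 6 of 10, against 12.0%. Tumor 1 holds the lowest values of Gzmm and Ctsw and the highest of Gzma and Gzmk. The count highest in tumor 1 ranged from 3 to 5 and that in tumor 2 from 4 to 7, since fewer tumors compete. Without tumor 1, 2 or 3 the count highest in that tumor has no value. The mean summed FPKM was 6436 with every tumor rescaled to the same total, a larger one than that of its FPKM and so a change of unit, and 899.6 without Gzmb. Divided by the summed FPKM of Cd8a and Cd8b1, chosen after seeing the data, the counts highest in tumors 2 and 3 were 7 and 1. The share of all genes highest in each tumor was not counted on this scale, which raised tumor 2 against the others for every gene. The summed FPKM was 1701 on it. Other scales moved the median log2 ratio of tumor 3 to tumor 1 over all genes averaging at least 1 FPKM from -0.24 to between -0.70 and -0.05, and the Cd8a and Cd8b1 scale moved that of tumor 2 to tumor 1 from -0.18 to 1.09. The share of the highest granzyme ranged from 71.9% to 86.7% without each tumor. Depth limits Gzmc in tumors 1 and 3 and the other 5 granzymes, which had at most 6 reads per gene there.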

Other observations

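Genes of naive and memory T cells were expressed beside the granule genes. Of 9 such genes, 8 were above 1 FPKM in every tumor, against 28.4% of all symbols, and 8 were lowest in tumor 2, against 38.3% of all genes averaging at least 1 FPKM. This was the tumor with the highest summed FPKM of the granule genes. Tcf7, a factor of naive and stem-like T cells, had 175, 124 and 169 FPKM in tumors 1, 2 and 3. Ccr7 had 71.2, 33.2 and 53.8 FPKM. Il7r, the receptor chain for interleukin 7, had 30.7, 0.641 and 64.5 FPKM in tumors 1, 2 and 3, a 101-fold difference and the largest of the list. Tumor 3 thus held both the most Il7r and the most Gzmm. B cells and CD4 T cells also express some of these genes, and the B-cell genes, Cd4, Cd8a and Cd8b1 were lowest in tumor 2 as well. The part of those cells was not tested.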
